A study of Rattus norvegicus with 12 samples.

Results

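The module described here holds 69 genes of neonatal rat ventricular myocytes (NRVM) that fell with phenylephrine (PE). They also stayed low when PE was given to cells that had the kinase inhibitor THZ1. The members of the module were chosen by measured values. A gene entered when its mean normalized count over 12 libraries was at least 20, its PE mean was at most 0.5 of the baseline mean, and its PE + THZ1 mean exceeded the PE mean by no more than 25%. The first 2 conditions were met by 368 genes, of which the members are 18.75%, and the other 299 are called the other PE-repressed genes. All were drawn from 13350 genes with a mean of at least 20, among 15920 genes in the table.

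NRVM are heart muscle cells isolated from the ventricles of newborn Sprague Dawley rats, here from pups of postnatal day 2 to 3. The cells were preplated and exposed to BrdU against non-myocytes, and were kept without serum for 48 h before treatment. Poly(A) RNA was sequenced in 4 groups of 3 libraries. Baseline cells received vehicle, and the others received PE at 100 µM, THZ1 at 10 nM, or PE at 100 µM with THZ1 at 10 nM. By the labels the treatment lasted 48 h, whereas the table names the columns of both PE-treated groups with 24 h. No label says that libraries of a group came from separate cultures or animals, so p-values measure only the spread between these libraries, which may be technical.

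PE is an agonist of α1-adrenergic receptors, whose signalling through Gq makes cultured cardiomyocytes grow and changes their gene expression, with some genes induced and others repressed. THZ1 is a covalent inhibitor of CDK7, CDK12 and CDK13, kinases that phosphorylate the C-terminal domain of RNA polymerase II at initiation and during elongation. A gene that falls with PE can therefore be read in 2 settings, with the inhibitor given without PE and with it given together with PE. By the study's methods the inhibitor was given before PE, so PE acted on cells that already had THZ1.

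Genes carry Ensembl identifiers, and 0 of 15920 could be paired with a symbol in the 47357 entries of the annotation at hand. Functions of the members are therefore not described, and the markers of cardiomyocytes and of other heart cells could not be read. The 12 libraries held 30458862 to 45885754 reads on genes. The group levels below are from bulk cultures, in which fewer cells of a type and less RNA per cell cannot be told apart.

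**Figure D1:**
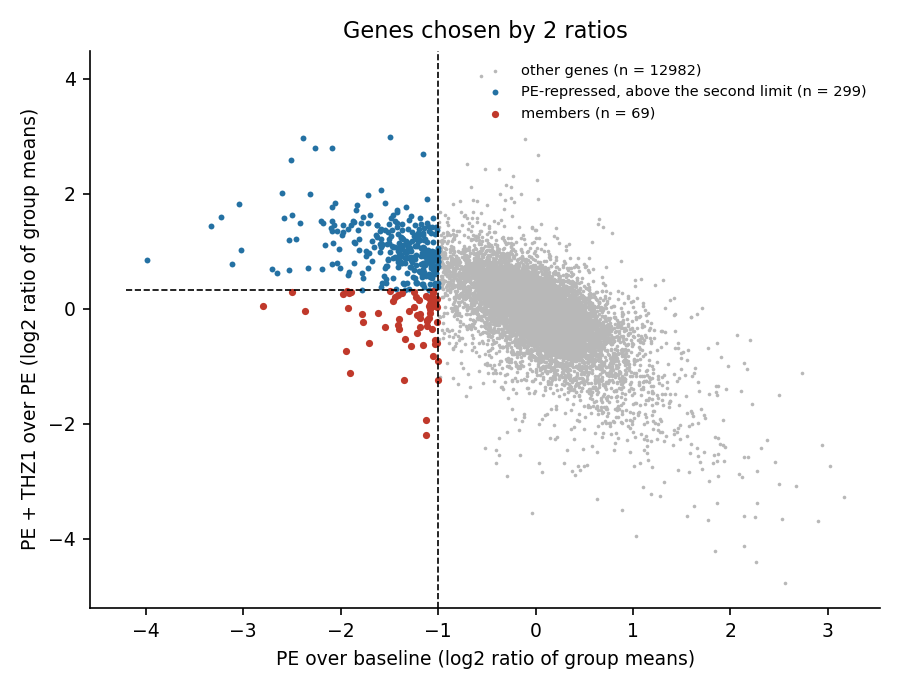
Each point is a gene with a mean of at least 20, placed by the log2 ratio of its PE mean to its baseline mean (x axis) and of its PE + THZ1 mean to its PE mean (y axis), with dashed lines at the limits of the rule. The 69 members (red) fill the lower left corner, and the 299 other PE-repressed genes (blue) lie above them.

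The members were repressed by PE to a median of 0.438 of baseline, with a range from 0.144 to 0.499 and middle values from 0.369 to 0.474. With PE + THZ1 their median was 0.977 of the PE level, from 0.219 to 1.24. These ratios chose the members and are given without a test. In the other PE-repressed genes the same medians were 0.398 and 2.01. Thus 36 members had a PE + THZ1 mean below their PE mean, and 33 lay above it by no more than the limit allows. This split holds for the counts as scaled by the authors, which are relative levels and not amounts of RNA per cell. Scaling the libraries to equal totals raised PE + THZ1 over PE by a factor of 1.196, so the split depends on the scaling.

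All 3 PE libraries lay below all 3 baseline libraries in 67 of 69 members, against 26.6% of all genes tested, a count that the choice of members largely fixes. All 3 PE + THZ1 libraries lay below all 3 PE libraries in 16 members, against 36.4% of all genes. They lay above all 3 PE libraries in 10 members, against 35.0% of all genes. The remaining 43 members had PE and PE + THZ1 libraries that overlapped. The rule used both groups and removed genes with larger rises, so these counts partly follow from the choice of members. Of the other PE-repressed genes, 284 of 299 (95.0%) had all 3 PE + THZ1 libraries above all 3 PE libraries.

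Several members sat close to a limit. The 3 highest PE to baseline ratios inside the limit were 0.4976, 0.4984 and 0.4995, and the 3 nearest genes outside it, among those that met the other conditions, had 0.5016, 0.5045 and 0.505. For the PE + THZ1 to PE ratio the nearest inside were 1.236, 1.241 and 1.242, and the nearest outside were 1.255, 1.257 and 1.257.

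Read support of the members was low, on a scale that is not divided by gene length. Their median level was 85.6 normalized counts over all libraries, against 125.7 in the other PE-repressed genes and 739.2 over all genes tested, and it ranged from 20.6 to 4579. Of the 69, 25 had a mean between 20 and 50, 20 between 50 and 200, and 24 of 200 or more. The fewest reads behind a value of a member were 5, and 2 members had under 10 reads in a library. Replicates of the members spread more widely than those of genes in general, with a median coefficient of variation at baseline of 14.6%, against 7.52% for all genes.

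THZ1 lowered nearly all members in resting cells, without PE. In 62 of 69 members (89.9%) the level with THZ1 alone was below baseline by limma with a Benjamini-Hochberg adjusted p under 0.05, against 27.3% of all genes tested. No member was higher (0 of 69), against 27.2% of all genes, and the count at an unadjusted p under 0.05 was also 0, as were the counts higher with edgeR and DESeq2. This comparison was not part of the rule, but it shares the baseline libraries with it, and the rule favours high baseline values. The median log2 change of the members was -0.88 (SD over the 3 THZ1 libraries 0.113), against 0.0024 over all genes. This SD leaves out the spread of the baseline libraries. With a baseline library left out, the median of the members ranged from -0.96 to -0.78.

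The other PE-repressed genes met the same condition on PE and baseline. With THZ1 alone, 41 of 299 (13.7%) were lower and 77 (25.8%) were higher, with a median log2 change of 0.066. A THZ1 mean of at most 0.5 of baseline was found in 24 members (34.8%), in 6 of the other PE-repressed genes (2.01%) and in 443 of all genes (3.32%). The split between members and the others used the PE and PE + THZ1 libraries and no library of THZ1 alone. No test over the lists was run, and the counts describe them.

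**Figure D2:**
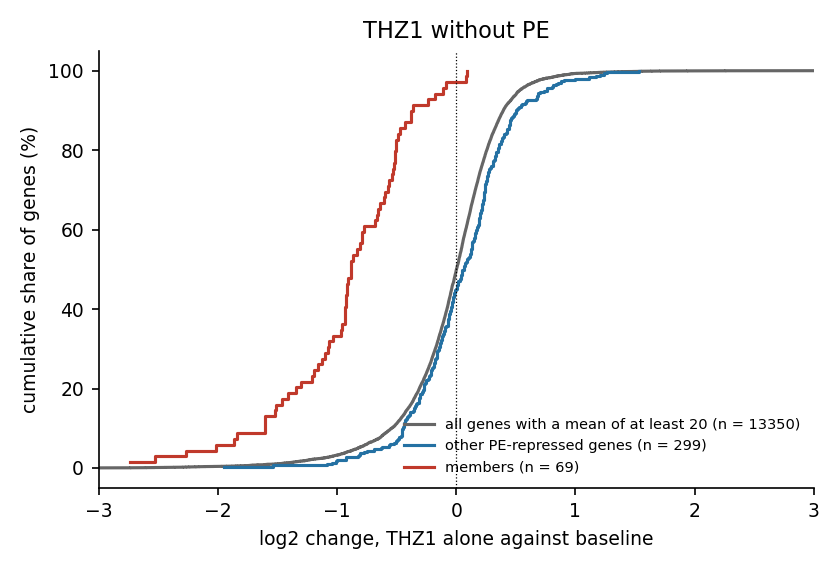
Cumulative share of genes (y axis, %) by the log2 change with THZ1 alone against baseline (x axis, on log2 of normalized count + 1) for the 69 members (red), the 299 other PE-repressed genes (blue) and all 13350 genes tested (grey). The curve of the members lies to the left, with a median of -0.88, while the others have medians of 0.066 and 0.0024.

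By library, the median member stood at 108%, 89.0% and 103% of its baseline mean in the 3 baseline libraries. It stood at 59.0%, 50.9% and 56.7% with THZ1 alone, at 42.7%, 44.3% and 41.0% with PE, and at 39.7%, 38.2% and 35.6% with PE + THZ1. Every treated library was thus below every baseline library, and the 3 libraries with THZ1 alone were above all 6 libraries that had PE. As group means of these medians, the levels were 100.2% ± 9.96 (SD, n = 3) at baseline, 55.5% ± 4.14 with THZ1 alone, 42.7% ± 1.64 with PE and 37.8% ± 2.06 with PE + THZ1.

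The other PE-repressed genes stood at 99.6% ± 5.96 (SD, n = 3) at baseline, 104.5% ± 1.31 with THZ1 alone, 39.1% ± 1.68 with PE and 78.2% ± 2.01 with PE + THZ1. The rule holds both sets to low levels with PE and itself sets them apart with PE + THZ1. With THZ1 alone, a group it did not use, the 3 libraries of the members lay between 50.9% and 59.0% and those of the others between 103.3% and 105.9%.

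**Figure D3:**
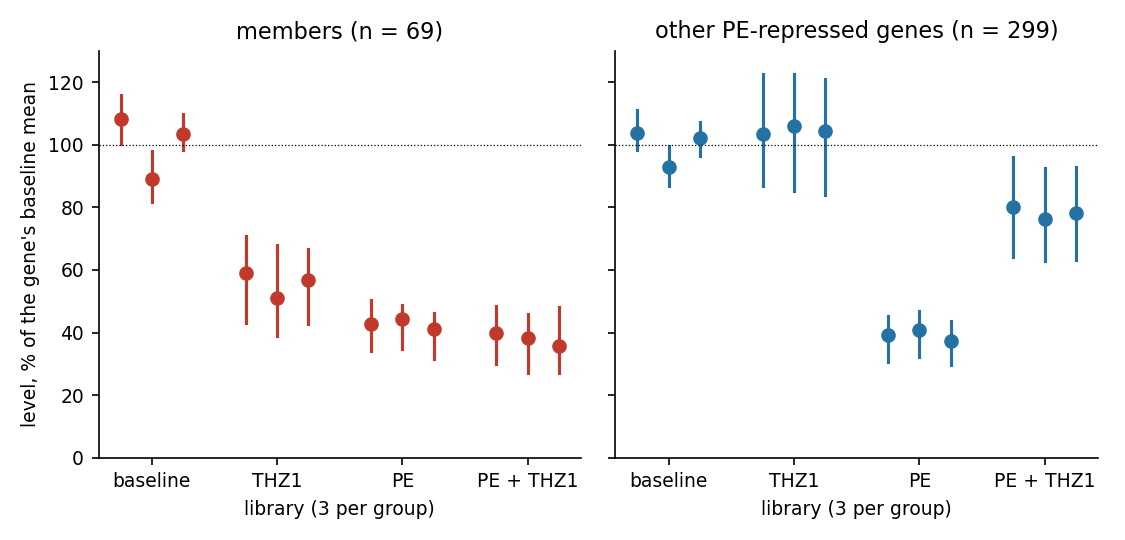
Level of the median gene in each of the 12 libraries, as % of the gene's baseline mean (y axis), for the members (left) and the other PE-repressed genes (right), with lines from the lower to the upper quartile over genes. With THZ1 alone the members lie between 50.9% and 59.0% and the others near the baseline, at a group mean of 104.5%.

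Many members were lower with PE + THZ1 than with THZ1 alone. In this comparison 40 of 69 members (58.0%) passed in that direction by limma with a Benjamini-Hochberg adjusted p under 0.05, against 12.6% of all genes tested. None (0) was higher, against 13.5% of all genes, and the count at an unadjusted p under 0.05 was also 0, as it was at the adjusted threshold with edgeR and DESeq2. The rule held PE + THZ1 to at most 0.600 of baseline in the members, which favours lower calls and works against higher ones. Neither count is independent of the choice of members, and both are given as a description. The median log2 change was -0.55 (SD over the 3 PE + THZ1 libraries 0.0658, which leaves out the spread of the libraries with THZ1 alone). Among the other PE-repressed genes 169 of 299 (56.5%) were lower and 1 was higher, with a median of -0.42, so the share lower was close to that of the members.

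The members can be sorted, as a description, by the calls of the 2 comparisons, of which the second draws on PE + THZ1 values that the rule used. In 33 members THZ1 alone was below baseline, and PE + THZ1 was in turn below THZ1 alone. The median of these was 62.1% of baseline with THZ1 alone, 43.6% with PE and 37.7% with PE + THZ1, at a median level of 170 normalized counts. A further 29 were lower with THZ1 alone and did not pass in the second test, with medians of 49.1%, 45.9% and 37.5%. Their median level was 41.3 normalized counts, the median standard error of their second log2 change was 0.24, against 0.12 in the 33, and their median ratio of PE + THZ1 to THZ1 alone was 0.873, so a missing call here does not show equal levels.

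The last 7 members did not pass with THZ1 alone, with ratios to baseline from 0.735 to 1.06 and adjusted p from 0.0803 to 0.802 (limma, Benjamini-Hochberg). All 7 were lower with PE + THZ1 than with THZ1 alone. The rule held PE + THZ1 low, to at most 0.600 of baseline in the members. With THZ1 alone at 0.735 of baseline or more, these 7 calls largely follow from the choice of genes. The medians of the 7 were 92.7% of baseline with THZ1 alone, 38.7% with PE and 46.8% with PE + THZ1. Their levels ranged from 35.7 to 827.6 normalized counts. In every one of these 7 the PE + THZ1 mean was above the PE mean. No member (0) lacked both calls, an outcome that the limits of the rule also favour.

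**Figure D4:**
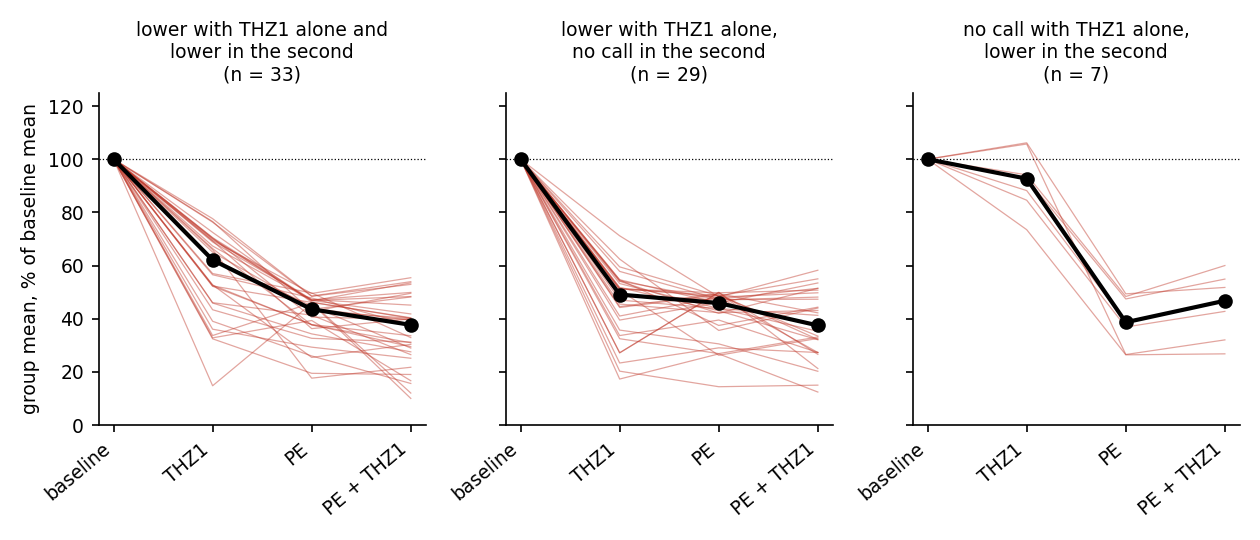
Group means of each member as % of its baseline mean (y axis) in the 4 groups (x axis), 1 red line per gene and the median in black, in 3 panels by the limma calls for THZ1 alone against baseline and, second, for PE + THZ1 against THZ1 alone. The first 2 panels fall at THZ1 alone, to medians of 62.1% and 49.1%, while the 7 genes of the third have a median of 92.7% there.

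Members with lower levels in PE + THZ1 relative to PE also had lower levels with THZ1 alone. In the 5 members whose PE + THZ1 mean was under 0.5 of the PE mean, the median ratio of THZ1 alone to baseline was 0.271. That ratio was 0.460 in the 13 members between 0.5 and 0.8, 0.522 in the 18 between 0.8 and 1, and 0.660 in the 33 above 1. Of the last 33 members, 26 were lower with THZ1 alone.

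Across the 69 members the log2 ratios of THZ1 alone to baseline and of PE + THZ1 to PE had a Pearson r of 0.652 and a Spearman rho of 0.583. The 2 ratios share no library. Over all 13350 genes r was 0.747, so the relation was also present outside the module. Genes are not independent replicates, and the rule cut the second ratio at its limit.

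The ratios of PE to baseline and of PE + THZ1 to THZ1 alone had an r of 0.340 (rho 0.354) across the members, against 0.579 over all genes. In the other PE-repressed genes r was 0.559 (rho 0.488). The rule cut the first ratio at its limit and held PE + THZ1 low in the members. These values of r therefore cover unlike ranges, and their difference was not tested.

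In PE + THZ1 the median member stood at 0.394 of baseline, with a range from 0.100 to 0.600. The product of its ratios with THZ1 alone and with PE alone had a median of 23.3% of baseline. The measured level was above this product in 67 of 69 members, by a median factor of 1.59 and a range from 0.777 to 5.14. The same was found in all 299 of the other PE-repressed genes, with a median factor of 1.95, and in 46.9% of all genes tested, with a median of 0.985. The baseline, PE and PE + THZ1 means that enter this factor were used by the rule, and a low PE mean lowers the product, so the count is a description and not a trait of the members. With THZ1 alone 57 members stood above their PE level, which the rule had held low, and 12 below it. The share of all genes was not determined for this count. The median ratio of THZ1 alone to PE was 1.38 in the members and 2.69 in the other PE-repressed genes.

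The 2 members with the lowest PE to baseline ratio among those with a mean of at least 100 were ENSRNOG00000003537 and ENSRNOG00000030771. ENSRNOG00000003537 had 1783, 1680 and 2118 normalized counts at baseline, 1174, 1289 and 1219 with THZ1 alone, 356, 350 and 278 with PE, and 425, 389 and 399 with PE + THZ1. The 4 groups did not overlap, with baseline highest and PE lowest. Its log2 change with THZ1 alone was -0.59, and that of PE + THZ1 against THZ1 alone was -1.60 (SE 0.092 for both). No test is given for these 2 genes, because they were picked for their low PE to baseline ratios. ENSRNOG00000030771 had 3285, 3012 and 3543 normalized counts at baseline, 1786, 1671 and 1730 with THZ1 alone, 809.8, 852 and 841 with PE, and 984, 1032 and 969 with PE + THZ1. Again no groups overlapped, in the same order. Its log2 changes were -0.92 and -0.80 (SE 0.056 for both) in the 2 comparisons.

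ENSRNOG00000010320 and ENSRNOG00000012720 were the members with the highest mean normalized count. The first had 7342, 5505 and 6944 normalized counts at baseline, 5245, 4832 and 5028 with THZ1 alone, 3256, 3081 and 3245 with PE, and 3333, 3514 and 3625 with PE + THZ1. Its second baseline library came near the THZ1 libraries without overlap. The log2 change with THZ1 alone was -0.38 (SE 0.076, limma Benjamini-Hochberg adjusted p = 0.000487). It rests on baseline libraries that the rule also used and favoured when high, which favours a fall. The log2 change of PE + THZ1 against THZ1 alone was -0.53, given without a test because the rule used the PE + THZ1 values. ENSRNOG00000012720 had 5476, 4596 and 5050 normalized counts at baseline, 3219, 3046 and 3119 with THZ1 alone, 2278, 2253 and 2055 with PE, and 2436, 2425 and 2425 with PE + THZ1. Its groups stood in the same order, and its log2 changes were -0.68 and -0.36 (SE 0.057 for both).

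Another order of the groups was seen in ENSRNOG00000021402 and ENSRNOG00000023943, the 2 members of a mean of at least 100 with the lowest PE + THZ1 to PE ratios. ENSRNOG00000021402 also had the lowest change of all members with THZ1 alone. It had 525.9, 397 and 534 normalized counts at baseline, 63.8, 73.6 and 77.8 with THZ1 alone, 247, 219 and 201 with PE, and 47.3, 54.8 and 43.6 with PE + THZ1. Its THZ1 libraries were below its PE libraries, and PE + THZ1 was the lowest group. The log2 change with THZ1 alone was -2.73 and that of PE + THZ1 against THZ1 alone was -0.55 (SE 0.13 for both), given without a test because the gene was picked for its low values. ENSRNOG00000023943 had 5086, 4292 and 5561 normalized counts at baseline, 1681, 1700 and 1519 with THZ1 alone, 1918, 2061 and 1894 with PE, and 807, 771 and 911 with PE + THZ1. Its log2 changes were -1.60 and -0.98 (SE 0.081 for both), and no groups overlapped.

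ENSRNOG00000037632 was the member with the highest change with THZ1 alone. It had 228, 158 and 203 normalized counts at baseline and 176, 222 and 226 with THZ1 alone, so these groups overlapped. With PE it had 52.5, 56.9 and 47.0, and with PE + THZ1 64.0, 54.8 and 70.0. Its log2 change with THZ1 alone was 0.087 (SE 0.15), and without the second baseline library the estimate was -0.060. The log2 change of PE + THZ1 against THZ1 alone was -1.70 (SE 0.15). These are given without a test, because the gene was picked for its high value with THZ1 alone.

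**Figure D5:**
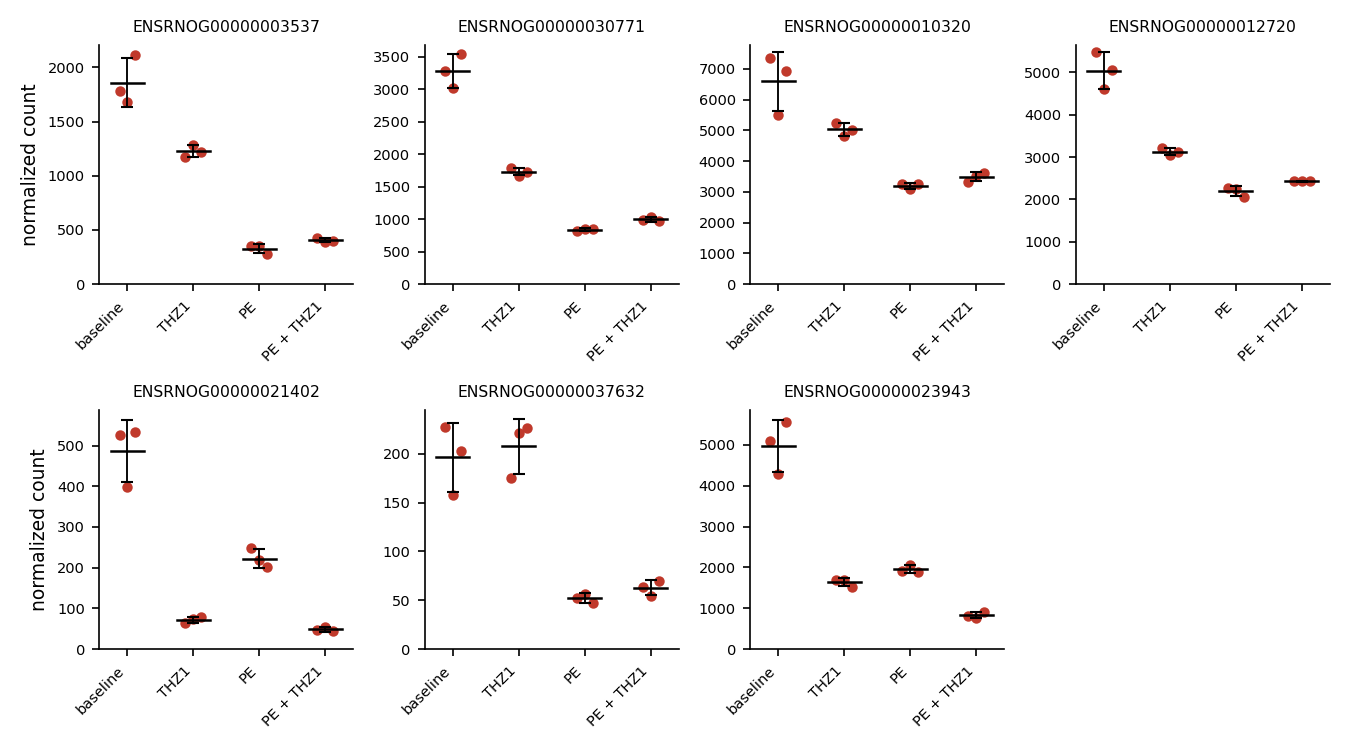
Normalized counts (y axis, linear and starting at 0, with its own range in each panel) of 7 members in the 4 groups (x axis), with 1 point per library and lines for the mean ± SD of 3 libraries. In ENSRNOG00000021402 and ENSRNOG00000023943 THZ1 alone lies below PE, and in ENSRNOG00000037632 THZ1 alone overlaps the baseline.

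The authors had sorted the genes of the table into 6 clusters. Of the members 53 were in the cluster numbered 3 in the table, which holds 2355 genes, and 16 in the cluster numbered 5, which holds 2263. The other PE-repressed genes fell into cluster 1 with 144, cluster 3 with 33 and cluster 5 with 122. These clusters were made from the same libraries, so they are not independent of the rule. Their numbers are those of the table and cannot be read as those of the study's text. There, cluster 5 is described as induced by PE, and cluster 2 as lowered by PE with the fall attenuated by THZ1. In the table, cluster 2 held 0 members and 0 of the other PE-repressed genes.

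One baseline library stood lower than its partners in these genes. Baseline replicate 2 was the lowest of the 3 in 48 members (69.6%), against 39.2% of all genes, with a median of 0.843 of the mean of the other 2, against 0.895 in the other PE-repressed genes and 1.00 over all genes. In 3 members it was under 0.5 of that mean. Without it the rule found 89 genes, 66 of them members, while 61 of the 69 members were lower with THZ1 alone and the median log2 change was -0.96.

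The rule was also applied without the 4 libraries of a replicate number, and the genes found were read in the libraries left out. Without number 1 it found 60 genes, 53 of them members, whose median ratio of PE to baseline in the left-out libraries was 0.408 and of PE + THZ1 to PE was 0.968, and 39 met both limits there. Without number 3 it found 58 genes, 52 of them members, with ratios of 0.399 and 0.970, and 37 met both. Without number 2 it found 88 genes, 57 of them members, with ratios of 0.532 and 0.871, and 22 met both.

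In these left-out libraries THZ1 alone was below baseline in 60 of 60, 82 of 88 and 57 of 58 genes for numbers 1, 2 and 3. The median ratios were 0.581, 0.667 and 0.563. The PE + THZ1 value was below that of THZ1 alone in 56, 72 and 54 of them, with median ratios of 0.682, 0.790 and 0.604. The shares of all genes in these single libraries were not determined, so the counts are a description. Over all 13350 genes the median ratios of group means were 1.00 for THZ1 alone to baseline and 0.994 for PE + THZ1 to THZ1 alone.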

How the data were processed

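RNA-seq of NRVM was analysed in 4 groups of 3 libraries, grouped by the sample labels. Per the labels and the study's methods, reads were mapped to rn5 using TopHat2 2.1.1, and stranded gene counts from HTSeq were scaled by the authors with DESeq2, all rat libraries being taken in a single analysis. The deposited table holds these normalized counts, a signal equal to the reads of a gene over the size factor of its library. The reads were recovered from the steps of these values, and 100% came out whole within 0.01. A category column holds the authors' cluster of each gene.

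Members were chosen on group means as the report states. The members and lists were chosen with earlier results of these data known. THZ1 alone against baseline and PE + THZ1 against THZ1 alone were tested with limma 3.58.1 (R 4.3.3), after transformation to log2(normalized count + 1), in 1 fit of all 12 libraries, with a prior variance that follows expression, two-sided, with Benjamini-Hochberg adjustment over 13350 genes and a threshold of 0.05. Fold changes are on that scale, which understates those of low genes. On simulated reads for THZ1 alone against baseline (13340 genes), the fit called 92 of 95 genes changed by a log2 of 1 and 103 of 103 changed by 2, with 9 false calls. The simulation used a single fixed dispersion and drew the changed genes from all levels. Its rates therefore do not carry over to the members, which are lower and spread more widely. Depth was 30458862 to 45885754 reads per library, which limits the precision of low genes.

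As symbols could not be paired, lists of pathways and cell type markers were not used, and members are named by identifier, at most 2 for each of: lowest PE to baseline ratio and lowest PE + THZ1 to PE ratio (mean of at least 100), highest mean, and 1 each for lowest and highest change with THZ1 alone. No gene coordinates or sequences are given, as no annotation of rn5 was used here. Alternatives were edgeR 4.0.16 and DESeq2 1.42.0 on the recovered reads, other pseudocounts, minimum means and scalings, no variance trend, fits of only the groups compared, a replicate block, and each library left out. Leaving out the 4 libraries of a replicate number was chosen after seeing the data. Tables and figures were made with Python 3.11.15, numpy 2.4.6, pandas 2.3.3 and matplotlib 3.10.9.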

Additional observations from a re-analysis of the deposited data

Results flagged for a closer look

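In 4 of the named members all 3 libraries with THZ1 alone lay below all 3 baseline libraries. In the same members all 3 PE + THZ1 libraries lay above all 3 PE libraries. THZ1 thus went with opposite directions without and with PE. The ratio of THZ1 alone to baseline was 0.660 and that of PE + THZ1 to PE was 1.23 in ENSRNOG00000003537. These ratios were 0.527 and 1.19 in ENSRNOG00000030771, 0.763 and 1.09 in ENSRNOG00000010320, and 0.621 and 1.11 in ENSRNOG00000012720. The difference between the settings was not tested, because the rule used the second ratio. The same pattern was found in 9 of the 69 members, in 46 of the 299 other PE-repressed genes (15.4%) and in 266 of all 13350 genes (1.99%).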

How the results depend on the processing

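The number of members depended on the minimum level, with 44 at a minimum mean of 50 and 111 without a minimum, which follows from fewer or more genes being eligible. It was 58 with libraries scaled to equal totals (44 of them members), 71 with TMM factors, and 52 to 89 when a library or the libraries of a replicate number were left out. At a minimum mean of 50, 38 of the 44 members tested were lower with THZ1 alone, with a median log2 change of -0.67. With equal totals that median was -0.73 over 69 members, while the median of all genes rose by 0.15, and 57 members were lower. Relative to all genes the members' median was -0.89 with equal totals and -0.88 as deposited. The ratio of PE + THZ1 to PE changed by a factor of 1.196 with equal totals and of 1.011 with TMM factors. How many members then lay above or below their PE level was not determined. With a library left out, 55 to 62 members were lower with THZ1 alone (median log2 change -0.96 to -0.78) and 32 to 42 with PE + THZ1 against THZ1 alone (median -0.58 to -0.51). On the recovered reads edgeR found 63 and 39 members lower in the 2 comparisons, and DESeq2 found 59 and 37. The only change of direction among the named members was in ENSRNOG00000037632, whose log2 change with THZ1 alone was -0.060 without baseline replicate 2 and up to 0.20 with another library left out.

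With the replicate block 63 and 41 members were lower in the 2 comparisons, and over all genes 7463 were called against 7280, and 3659 against 3481. Libraries of the same number deviated together only weakly, with a mean correlation of 0.0446 over 18 pairs (-0.140 to 0.216). Over 36 pairs of different numbers the mean was -0.0227. The numbers were not taken to pair the libraries. Depth limits mainly the 25 members with a mean between 20 and 50, of which 7 were lower with PE + THZ1 than with THZ1 alone.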
